A study of Mus musculus with 2 samples.

Results

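The miR-99, miR-100 and miR-125 microRNAs were described in small RNA libraries of mouse liver. The group holds 9 mature microRNAs chosen by name (mmu-miR-99a-5p and -3p, mmu-miR-99b-5p and -3p, mmu-miR-100-5p, mmu-miR-125a-5p and -3p, mmu-miR-125b-5p and mmu-miR-125b-2-3p), out of 1915 mature microRNAs in all, and each of the 9 was listed in both tables of the series. The 2 tables are called experiments 1 and 2 here, and each holds 1 pair-fed and 1 ethanol-fed library. All mice were female wild-type C57BL/6 mice of 8 to 10 weeks, and all were given a control Lieber-DeCarli liquid diet for 5 days to become used to it. Ethanol-fed mice then had the same kind of diet with 5% (v/v) ethanol for 10 days and 1 gavage of ethanol at 6 g/kg on day 16, and livers were taken 9 h after it. Pair-fed mice received the control diet in equal calories and a gavage of isocaloric dextrin-maltose. The labels hold 1 sample per condition, and how many animals gave RNA to a library is not given in the sources used here.

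A microRNA is a short RNA that guides Argonaute proteins to messenger RNAs, mainly through the seed, the bases 2 to 8 from its 5′ end. Each hairpin precursor gives a 5p and a 3p strand, and usually one strand is kept while the other is degraded. The miR-125 microRNAs are the vertebrate relatives of worm lin-4, whereas miR-99 and miR-100 are known as repressors of mTOR signalling. In mammals the genes of both families lie beside let-7 genes in 3 clusters that each hold 1 gene of the miR-99 family, 1 let-7 gene and 1 miR-125 gene.

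The mature sequences on which the comparisons turn are given 5′ to 3′ from RefSeq (GRCm38.p6), with the seed in capitals, to show which members share a seed and how little they differ outside it. All 9 members were matched by name. The 3 members of the miR-99 family share the seed ACCCGUA, and the members of the miR-125 family share CCCUGAG with miR-351-5p.
miR-99a-5p: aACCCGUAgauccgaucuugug
miR-100-5p: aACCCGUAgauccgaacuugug
miR-99b-5p: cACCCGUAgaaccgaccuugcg
miR-125a-5p: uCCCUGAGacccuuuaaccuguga
miR-125b-5p: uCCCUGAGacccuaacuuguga
miR-351-5p: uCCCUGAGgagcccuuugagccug
The 3 passenger strands that passed a 2-fold difference in 1 of the experiments have other seeds.
miR-99b-3p: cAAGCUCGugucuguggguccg
miR-125a-3p: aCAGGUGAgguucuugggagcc
miR-125b-2-3p: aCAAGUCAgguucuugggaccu
miR-99a-5p and miR-100-5p differ by 1 base, U16A, with positions counted from 1 at the 5′ end and the base of miR-99a-5p first. miR-99b-5p differs from miR-99a-5p by 4 bases, A1C, U11A, U16C and U21C. miR-125a-5p and miR-125b-5p share their leading 13 bases. How reads that match more than 1 of these sequences were counted is not given in the sources used here. The split between miR-99a-5p and miR-100-5p is therefore uncertain, and so is their sum if a read could be credited to both.

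The genes lie on the plus strand in 3 clusters (GRCm38). Mir99b, Mirlet7e and Mir125a lie within 692 bp at chr17:17830188-17830879, inside the protein-coding gene Spaca6 on the same strand. Mir99b and Mirlet7e lie in introns of Spaca6, whereas an exon of 1 of the 3 Spaca6 transcripts around Mir125a, annotated as a non-coding transcript, overlaps it. Mir99a, Mirlet7c-1 and Mir125b-2 span 47408 bp at chr16:77598936-77646343, in introns of the non-coding host gene Mir99ahg. Mir100, Mirlet7a-2 and Mir125b-1 span 50578 bp at chr9:41531425-41582002, in introns of the non-coding gene 3110039I08Rik, and Mir125b-1 also lies over an exon of the sense-intronic gene Gm28119. miR-125b-5p is made from both Mir125b-1 and Mir125b-2, so its reads cannot be assigned to a cluster. The deposited tables hold names and no coordinates.

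Levels are given as RPM, the reads of a microRNA scaled to 1000000 microRNA reads of its library. The libraries held 4170601 (pair-fed) and 4311802 (ethanol-fed) microRNA reads in experiment 1. In experiment 2 the depths were estimated from the step between low values as 10812891 and 10820843 reads, and values under about 10 reads were listed as 0. With 1 library per condition and table no p-value was computed, and each comparison is between libraries. Log2 ratios are ethanol-fed over pair-fed after 1 read was added to each library, with exact (Clopper-Pearson) 95% intervals in brackets that cover counting error only. The hepatocyte microRNA miR-122-5p was present in all 4 libraries, but its pair-fed level was 61.6-fold higher in experiment 2 (182938 RPM) than in experiment 1 (2971 RPM), so the levels of the tables are set side by side with no test between them.

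The 5p strands carried nearly all reads of the group. mmu-miR-99b-5p was the most abundant member in experiment 1, at 8424 RPM (pair-fed) and 5889 RPM (ethanol-fed), where it ranked 16 and 17 among all microRNAs. In experiment 2 it stood at 569 RPM (pair-fed) and 841 RPM (ethanol-fed). The ethanol-fed library was thus the lower one in experiment 1, with a log2 ratio of -0.52 [-0.54, -0.49], and the higher one in experiment 2, with 0.56 [0.52, 0.61].

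mmu-miR-99a-5p was the most abundant member in experiment 2, at 7219 RPM (pair-fed) and 7935 RPM (ethanol-fed), with a log2 ratio of 0.14 [0.12, 0.15]. In experiment 1 it stood at 882 RPM (pair-fed) and 693 RPM (ethanol-fed), with a log2 ratio of -0.35 [-0.42, -0.28]. In experiment 1, mmu-miR-100-5p had 1665 RPM (pair-fed) and 1011 RPM (ethanol-fed), the largest difference among the 5p strands there (-0.72 [-0.77, -0.66]). In experiment 2 it was at 1614 RPM (pair-fed) and 2021 RPM (ethanol-fed), with a log2 ratio of 0.32 [0.30, 0.35]. All 3 members of the miR-99 family were therefore lower in the ethanol-fed library of experiment 1 and higher in that of experiment 2, with counting intervals on opposite sides of 0. This pattern was not particular to the family, since let-7a-5p and let-7f-5p had the same directions. In ratio alone, 155 of all 302 microRNAs were below 0 in experiment 1, and 236 of all 465 were above 0 in experiment 2. The share of all microRNAs with the whole pattern was not counted.

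The miR-125 microRNAs did not share this pattern. mmu-miR-125a-5p was at 2749 RPM (pair-fed) and 2812 RPM (ethanol-fed) in experiment 1, a log2 ratio of 0.03 whose interval [-0.005, 0.07] includes 0 and whose sign turned (-0.0028) when the most abundant microRNA was left out of the totals. In experiment 2 it was at 269 RPM (pair-fed) and 478 RPM (ethanol-fed), the largest ratio among the 5p strands of that table (0.83 [0.76, 0.89]). mmu-miR-125b-5p was lower in the ethanol-fed library of both tables, at 621 RPM against 473 RPM in experiment 1 (-0.39 [-0.48, -0.31]) and at 1613 RPM against 1479 RPM in experiment 2 (-0.13 [-0.16, -0.09]). It was the only member with both intervals below 0.

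**Figure D1:**
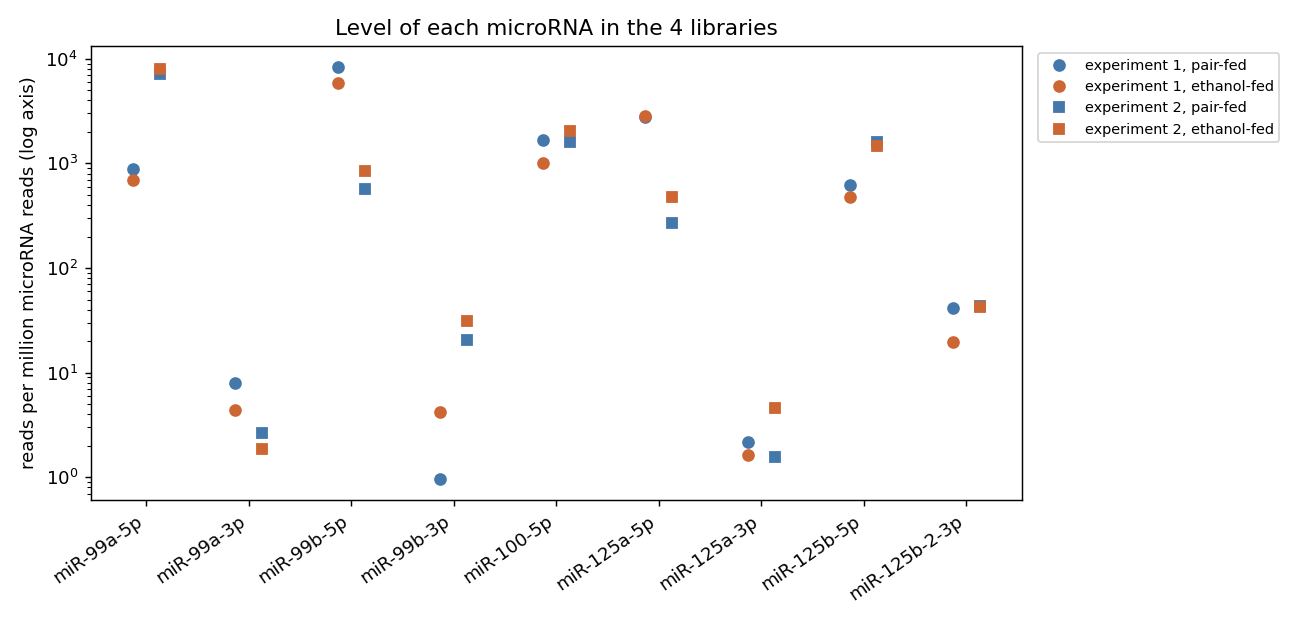
Level of the 9 microRNAs in RPM on a log axis, with circles for experiment 1, squares for experiment 2, blue for pair-fed and orange for ethanol-fed libraries, 1 library per point. miR-99b-5p and miR-125a-5p sit higher in experiment 1 and miR-99a-5p and miR-125b-5p higher in experiment 2, and these gaps between tables are wider than those between diets.

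The 3p strands were sparse, and both tables held 4 of them among the members. In experiment 1, mmu-miR-99b-3p had 4 pair-fed reads (0.959 RPM) against 18 ethanol-fed reads (4.17 RPM), a log2 ratio of 1.88 [0.52, 4.14]. In experiment 2 it had 20.4 RPM (pair-fed) and 30.9 RPM (ethanol-fed), or 0.60 [0.35, 0.85], and it was the only member with both intervals above 0. mmu-miR-125b-2-3p had 174 pair-fed reads (41.7 RPM) against 85 ethanol-fed reads (19.7 RPM) in experiment 1 (-1.07 [-1.47, -0.70]). It was nearly level in experiment 2, at 43.7 RPM and 42.05 RPM (-0.06 [-0.25, 0.13]).

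mmu-miR-125a-3p had 9 pair-fed against 7 ethanol-fed reads in experiment 1 (-0.37 [-2.07, 1.18]). In experiment 2 it had 1.57 RPM (pair-fed) and 4.62 RPM (ethanol-fed), about 17 and 50 reads (1.50 [0.74, 2.44]). mmu-miR-99a-3p was lower in the ethanol-fed library of both tables, with 33 against 19 reads in experiment 1 (-0.81 [-1.74, 0.01]) and 2.68 against 1.85 RPM in experiment 2 (-0.51 [-1.43, 0.34]), but both intervals include 0.

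Differences of 2-fold or more were few. In experiment 1, 1 of the 9 members (miR-99b-3p) was at least 2-fold higher in the ethanol-fed library, where 12.6% of all 302 microRNAs with at least 10 reads were, and 1 of 9 (miR-125b-2-3p) was at least 2-fold lower, where 12.9% of all were. In experiment 2, 1 of 9 (miR-125a-3p) was at least 2-fold higher, against 10.8% of 465 microRNAs, and 0 of 9 were at least 2-fold lower, against 14.4%. The 3 counts of 1 in 9 are near the shares of all microRNAs. With a minimum of 100 reads, 6 members remained in experiment 1 and 7 in experiment 2. Of these, 0 were at least 2-fold higher in either table, against 6.33% and 4.03% of all in experiments 1 and 2. At least 2-fold lower were 1 of the 6 in experiment 1 (miR-125b-2-3p), against 5.7% of all, and 0 of the 7 in experiment 2, against 8.05%. In experiment 2, 4.95% of all microRNAs were at least 2-fold higher when each 0 was replaced by the smallest value above 0, while the count of members stayed at 1. All 9 members had at least 10 reads in both tables. The median log2 ratio of the members was -0.39 in experiment 1, where the median of all 302 microRNAs was -0.01, and 0.32 in experiment 2, where that of all 465 was 0.01. Below 0 were 7 of the 9 members in experiment 1, against 155 of 302, and 3 of the 9 in experiment 2, against 229 of 465.

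Among microRNAs with at least 100 reads, 80% of the log2 ratios, from the 10th to the 90th percentile, ran from -0.74 to 0.63 in experiment 1 and from -0.88 to 0.64 in experiment 2. Of the members with as many reads, miR-125b-2-3p (-1.07) lay below that range in experiment 1 and miR-125a-5p (0.83) above it in experiment 2.

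**Figure D2:**
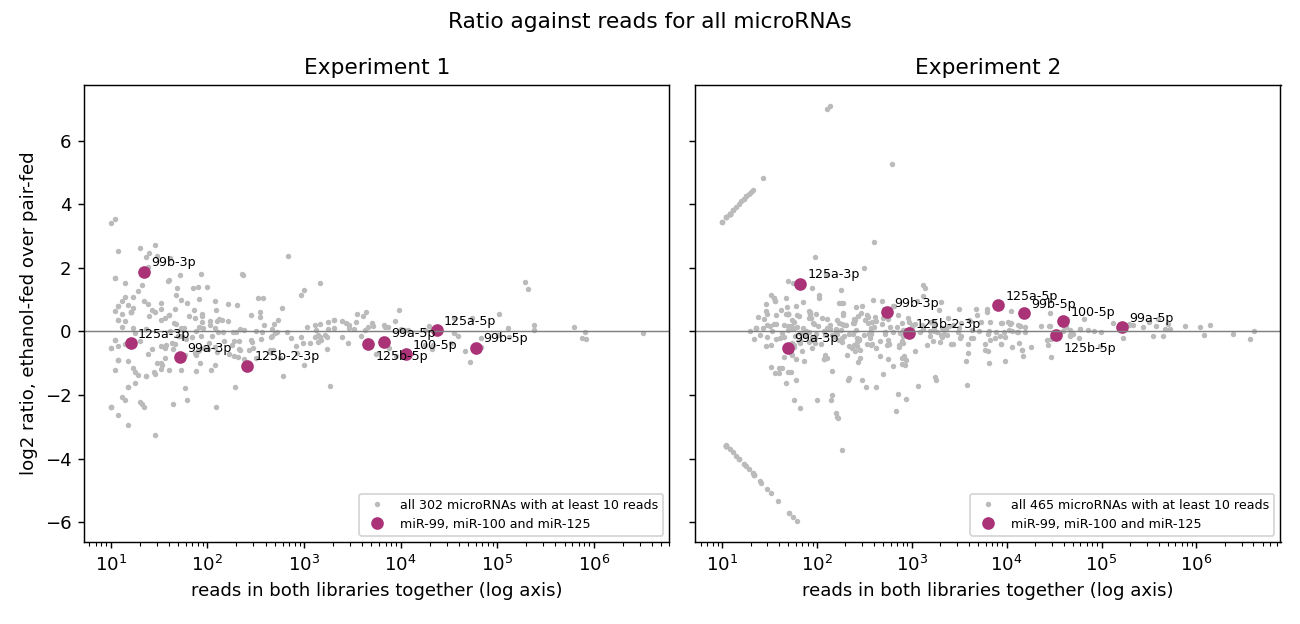
Log2 ratio (ethanol-fed to pair-fed) against the reads of both libraries together (log axis) for all microRNAs with at least 10 reads (grey) and for the 9 microRNAs described here (purple), 1 panel per experiment. The 5p strands of the group lie in the narrow part of the cloud, where the reads are many, mostly under 0 in experiment 1 and mostly above 0 in experiment 2, and the slanted rows of grey points in experiment 2 are microRNAs listed at 0 in 1 library.

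Summed over the seed family, the 5p strands of miR-99a, miR-99b and miR-100 made up 1.10% (pair-fed) and 0.759% (ethanol-fed) of microRNA reads in experiment 1. In experiment 2 they made up 0.940% and 1.08%. The family log2 ratio was -0.53 [-0.55, -0.51] in experiment 1 and 0.20 [0.19, 0.21] in experiment 2. The miR-125 family made up 0.337% (pair-fed) and 0.328% (ethanol-fed) in experiment 1 and 0.188% and 0.196% in experiment 2. Its log2 ratios were small, at -0.04 [-0.07, -0.003] and 0.06 [0.03, 0.08]. Thus the miR-125 seed kept nearly the same share in the libraries of a table while its members differed in direction in experiment 2.

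The makeup of each family differed more between the tables than between the diets. miR-99b-5p held 76.8% of the reads of the miR-99 family (pair-fed) and 77.6% (ethanol-fed) in experiment 1, but 6.05% and 7.79% in experiment 2. miR-99a-5p held 8.04% and 9.13% in experiment 1, and 76.8% and 73.5% in experiment 2. The share of miR-100-5p lay between 13.3% and 18.7% in the 4 libraries. In the miR-125 family, miR-125a-5p held 81.6% (pair-fed) and 85.6% (ethanol-fed) in experiment 1, and 14.3% and 24.4% in experiment 2. Wilson 95% intervals of the miR-125a-5p share did not overlap between the diets in experiment 1 (80.9% to 82.2% against 85.0% to 86.2%) or in experiment 2 (13.8% to 14.8% against 23.8% to 25.0%). These intervals cover counting error within 1 library per diet and hold no variation between libraries or animals. Their separation is therefore not a test of the diets.

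**Figure D3:**
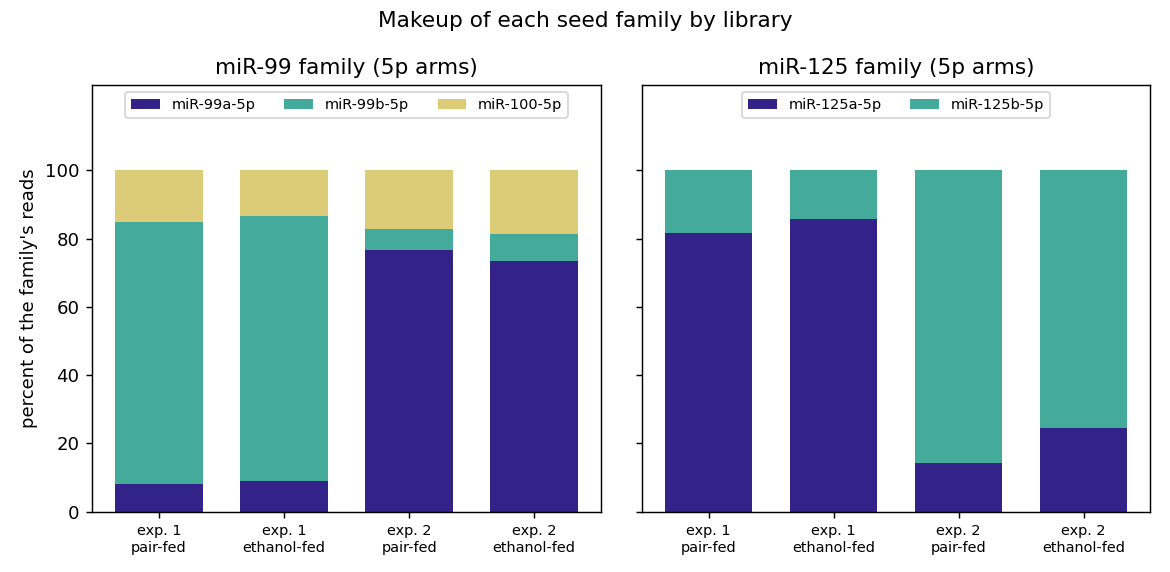
Share of each 5p strand in the reads of its seed family, in percent, for the 4 libraries (exp. 1 and exp. 2). miR-99b-5p and miR-125a-5p fill most of the bar in experiment 1 and miR-99a-5p and miR-125b-5p in experiment 2, and the share of miR-125a-5p is larger in the ethanol-fed library of both.

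Ratios between 2 members of the same library do not depend on how the library was scaled. Of the 10 pairs among the 5 5p strands, 6 moved in the same direction between the diets in both experiments. The other 4 moved in opposite directions. Both counting intervals were off 0 in 5 of the 6 and in all 4 of the others. Of the 5, 4 are miR-125a-5p against each of the other 4 members, so they share 1 strand and are not separate agreements. The share of all microRNA pairs that moved alike was not computed. Relative to miR-125b-5p, miR-125a-5p was higher in the ethanol-fed than in the pair-fed library by 0.42 [0.33, 0.52] on the log2 scale in experiment 1 and by 0.95 [0.88, 1.03] in experiment 2. The log2 ratio of miR-100-5p over miR-125a-5p differed by -0.75 [-0.82, -0.69] and -0.50 [-0.57, -0.43], that of miR-99b-5p over miR-125a-5p by -0.55 [-0.59, -0.51] and -0.26 [-0.34, -0.18], and that of miR-99a-5p over miR-125a-5p by -0.38 [-0.46, -0.30] and -0.69 [-0.76, -0.62]. The remaining pair of the 5 was miR-99b-5p over miR-100-5p, with 0.20 [0.14, 0.26] and 0.24 [0.18, 0.29]. The intervals of these differences come from a normal approximation of the counting error. This comparison was added after the values were seen.

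The members were next set beside their cluster neighbours. On chromosome 17, all 6 mature strands were higher in the ethanol-fed library of experiment 2, where 236 of all 465 microRNAs were. Their log2 ratios ran from 0.56 (miR-99b-5p) to 1.50 (miR-125a-3p), with a median of 0.73. The 6 strands come from 3 neighbouring hairpins, so they are not 6 separate agreements. In that experiment let-7e-5p, which carries the let-7 seed, was at 226 RPM (pair-fed) and 348 RPM (ethanol-fed) (0.62 [0.55, 0.70]). let-7e-3p was at 5.83 and 10.8 RPM (0.88 [0.44, 1.36]). In experiment 1, let-7e-3p was not listed, and of the other 5 strands 3 were above 0 and 2 below, with a median of 0.03. Of all 302 microRNAs, 147 were above 0 in experiment 1. let-7e-5p had 829 RPM and 914 RPM (0.14 [0.07, 0.21]) in that table, where miR-99b-5p was lower.

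Of the chromosome 9 strands, 4 of the 4 with at least 10 reads had ratios and intervals below 0 in experiment 1 (median -0.56). In ratio, 155 of all 302 microRNAs were below 0 there, and the share with intervals below 0 was not counted. In experiment 2 the strands were split, with 3 above and 1 below 0 (median 0.24). Of the chromosome 16 strands, 1 was above and 4 were below 0 in experiment 1 (median -0.39). In experiment 2, 1 was above and 5 were below (median -0.13), where 236 of all 465 were above and 229 below. miR-125b-5p, whose reads cannot be assigned to a cluster, is included in the counts of both chromosomes. On chromosome 16, let-7c-5p, which is also made from another gene on chromosome 15, was higher in the ethanol-fed library of experiment 1 (10076 RPM against 14792 RPM, 0.55 [0.54, 0.57]), while miR-99a-5p was lower. In experiment 2 the directions of both were turned, and let-7c-5p was at 16992 RPM (pair-fed) and 15404 RPM (ethanol-fed), with -0.14 [-0.15, -0.13]. On chromosome 9, let-7a-5p, which other let-7a genes give as well, was at 16418 and 14632 RPM in experiment 1 (-0.17 [-0.18, -0.15]) and at 16464 and 18392 RPM in experiment 2 (0.16 [0.15, 0.17]), in each table in the direction of miR-100-5p. miR-125b-1-3p, the 3p strand of the other miR-125b gene, had 55 and 28 reads in experiment 1 (-0.997 [-1.73, -0.34]), close to the ratio of miR-125b-2-3p, and 2.96 and 4.71 RPM in experiment 2 (0.65 [0.004, 1.36]). let-7c-1-3p had 1 read in experiment 1 and 3.33 and 2.68 RPM in experiment 2 (-0.30 [-1.07, 0.43]). miR-100-3p had 2 reads in experiment 1 and was listed at 0 in experiment 2, where let-7a-2-3p was listed at 0 too. In experiment 1, let-7a-2-3p was not listed.

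**Figure D4:**
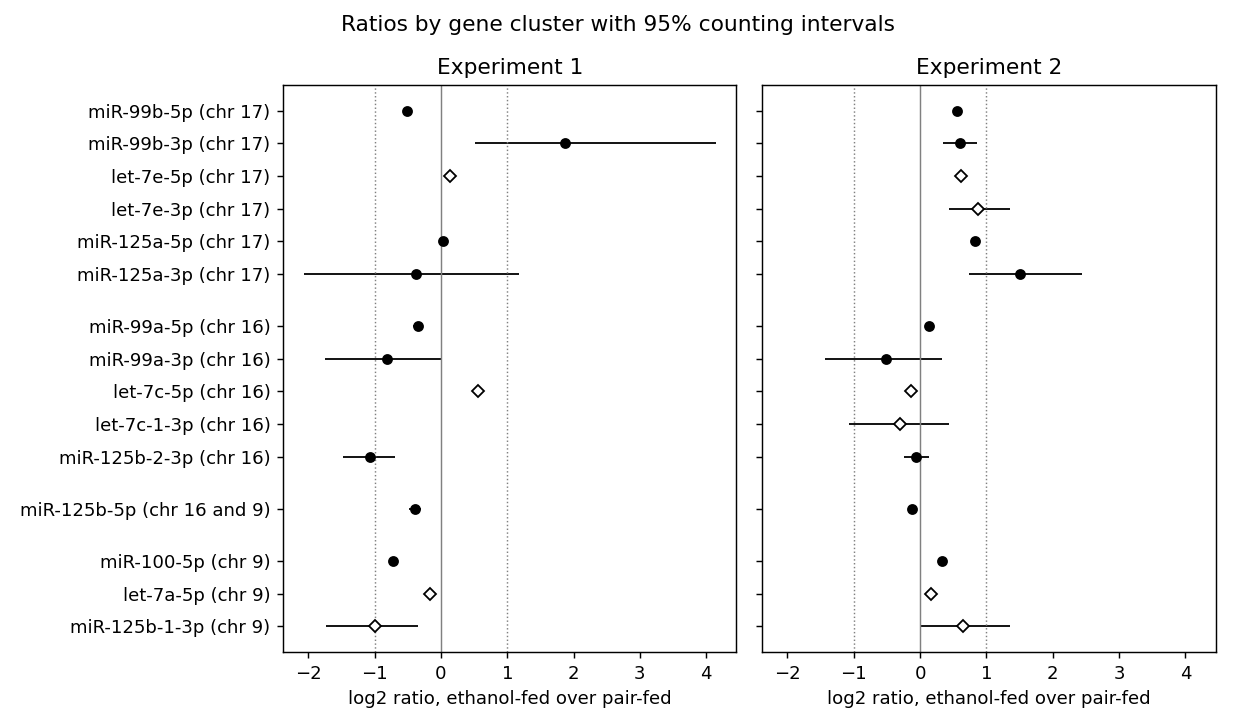
Log2 ratios (ethanol-fed to pair-fed) with 95% counting intervals (bars) for members (filled circles) and let-7 and 3p neighbours (open diamonds), grouped by the chromosome of the cluster, with dotted lines at 2-fold. In experiment 2 all 6 chromosome 17 strands lie to the right of 0, as did 236 of all 465 microRNAs. In experiment 1 these strands fall on both sides.

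miR-351-5p, the other listed microRNA with the miR-125 seed that had reads, was at 131 RPM (pair-fed) and 101 RPM (ethanol-fed) in experiment 1 (-0.38 [-0.56, -0.19]) and at 72.3 and 72.5 RPM in experiment 2 (0.003 [-0.14, 0.15]). miR-6367 and miR-6394, which share that seed, were not listed in experiment 1 and were listed at 0 in experiment 2.

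The balance of the strands was compared within each hairpin. The 5p strand outnumbered the 3p strand in every library for the 4 hairpins with both strands among the members, but by very different factors. With 1 read added to each strand, the 5p strand of Mir99b had 7027-fold (pair-fed) and 1337-fold (ethanol-fed) the reads of the 3p strand in experiment 1, and 27.8-fold and 27.2-fold in experiment 2. The log2 difference between the diets was -2.39 [-3.82, -0.97] in experiment 1, where it rested on 4 and 18 reads of the 3p strand, and -0.03 [-0.28, 0.21] in experiment 2. miR-125b-5p over miR-125b-2-3p was 14.8-fold (pair-fed) and 23.7-fold (ethanol-fed) in experiment 1, a log2 difference of 0.68 [0.30, 1.06]. In experiment 2 it was 36.8-fold and 35.1-fold (-0.07 [-0.26, 0.12]). For Mir99a and Mir125a the intervals of the difference included 0 in both tables, with 0.47 and 0.65 for Mir99a and 0.40 and -0.68 for Mir125a.

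Averaged over both tables, the log2 ratio was 1.24 ± 0.90 (SD, n = 2) for miR-99b-3p, -0.66 ± 0.21 for miR-99a-3p and -0.26 ± 0.19 for miR-125b-5p. For miR-99a-5p (-0.11 ± 0.34), miR-99b-5p (0.02 ± 0.76) and miR-100-5p (-0.20 ± 0.74) the spread between the tables was larger than the mean. The same held for miR-125a-5p (0.43 ± 0.56), miR-125a-3p (0.57 ± 1.32) and miR-125b-2-3p (-0.56 ± 0.72). Whether the tables come from separate animals is not given in the sources used here, so this SD may not be one between independent animals. An exact sign-flip test over 2 tables cannot go below p = 0.5, and no other test of these means was run.

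The microRNAs whose levels over the 4 libraries were most like those of a member were named by the root mean square distance of log2 levels, each centred on its own mean, among 113 microRNAs with at least 100 reads in each library. For miR-99b-5p these were miR-181a-5p (0.18), miR-10a-5p (0.24) and miR-125a-5p (0.29). For miR-125a-5p they were miR-181a-5p (0.24), miR-99b-5p (0.29) and miR-143-3p (0.31). miR-181a-5p had 4949 and 4436 RPM in experiment 1 and 464 and 561 RPM in experiment 2 (pair-fed, then ethanol-fed), so the likeness mostly reflects the gap between the tables. For miR-100-5p they were miR-361-5p (0.14), miR-145a-3p (0.18) and miR-378a-3p (0.21), which were lower in the ethanol-fed library of experiment 1 and higher in that of experiment 2. For miR-125b-5p they were miR-148a-3p (0.21), miR-28a-3p (0.23) and let-7d-5p (0.24). Their log2 ratios between the diets, in that order, were 0.13, 0.22 and 0.19 in experiment 1 and 0.02, -0.20 and 0.19 in experiment 2. Only miR-28a-3p in experiment 2 thus had the direction of miR-125b-5p, which was lower in both tables.

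Marker microRNAs of other cell types also differed between the libraries. In bulk tissue, fewer cells of a type and less RNA per cell cannot be told apart. In experiment 1, red cell microRNAs summed to 11559 RPM (pair-fed) and 33915 RPM (ethanol-fed), 4 of 4 higher, while in experiment 2 they summed to 1826 and 1152 RPM, 4 of 4 lower. White cell microRNAs were lower in the ethanol-fed library of both, at 404 and 336 RPM (4 of 4 with enough reads) and at 886 and 473 RPM (5 of 5). Endothelial microRNAs were higher in both, at 3854 and 5142 RPM and at 22335 and 26332 RPM, 2 of 2 each time. Mesenchymal microRNAs were at 96704 and 96242 RPM in experiment 1 (4 of 6 higher) and at 19883 and 25043 RPM in experiment 2 (3 of 6 higher). Without miR-143-3p, which held most of these sums, they were 428 and 507 RPM in experiment 1 (log2 ratio 0.24) and 4161 and 4363 RPM in experiment 2 (0.07). Pancreatic microRNAs summed to 85.1 and 48.5 RPM in experiment 1, nearly all of it miR-375-3p with miR-217-5p and miR-216a-5p at 0 or not listed, and to 5.92 and 113 RPM in experiment 2 (4 of 4 higher). Striated muscle microRNAs summed to 0.480 and 4.17 RPM and to 71.95 and 114.7 RPM, with miR-206-3p at 0 or not listed in both and miR-1a-3p at 0 or not listed in experiment 1. The hepatocyte list summed to 391253 and 375434 RPM in experiment 1 and to 300367 and 266566 RPM in experiment 2. In experiment 1, miR-192-5p held nearly all of it, at 388161 and 373090 RPM, with miR-122-5p at 2971 and 2210 RPM. In experiment 2, miR-192-5p was at 117318 and 109724 RPM and miR-122-5p at 182938 and 156660 RPM. The makeup of the hepatocyte sums thus differed between the experiments. Of the 3 listed, miR-802-5p was higher (log2 ratios 0.15 and 0.71) and 2 were lower in both. The part of these cell types in the ratios of the members was not tested.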

How the data were processed

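Per the methods, small RNAs of 18 to 40 nt from total liver RNA were amplified by RT-PCR and sequenced on an Illumina HiSeq. The values the authors deposited are an unscaled read count per mature microRNA (experiment 1) and RPM (experiment 2). The aligner and annotation are not given in the sources used here; the submitters' processing notes name mm8. The authors' fold change and p-value columns were not used, and the number of columns with no assigned sample was 0. Columns were assigned to the diets by their names.

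In experiment 2 reads were estimated from the RPM step of 1 read (0.0925 pair-fed, 0.0924 ethanol-fed), on which 99.0% and 97.6% of values under 60 RPM fell within 0.0101 RPM. With 1 library per condition in the only table of counts, no count test was run. The log2 ratio (pseudocount 1 read, minimum 10 reads in both libraries together) was used, with exact 95% intervals. These cover counting error only, since each condition has 1 library per table. In experiment 2 they were computed on the estimated reads. The reads carry no molecular identifiers. A count of 0 allows up to 0.719 and 0.696 RPM (pair-fed, ethanol-fed) in experiment 1. Named are all members, their cluster neighbours, microRNAs sharing a 5p seed, and the 3 most like each of 4 members. The members and lists were chosen with earlier results of these data known. The scripts (scipy 1.17.1, pandas 2.3.3 and numpy 2.4.6 under Python 3.11.15, with matplotlib 3.10.9) were tested on simulated data. Alternatives were size factors, totals without the most abundant microRNA, another pseudocount, other minimums, zeros at the lowest listed value, summed arms and each table left out.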

Additional observations from a re-analysis of the deposited data

Results flagged for a closer look

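The 3 microRNAs of the miR-99 seed family differed between the libraries in opposite directions in the 2 experiments, with the counting interval below 0 in experiment 1 and above 0 in experiment 2. The log2 ratio of experiment 2 minus that of experiment 1 was 0.48 for miR-99a-5p, 1.08 for miR-99b-5p and 1.04 for miR-100-5p. Other microRNAs had the same directions, among them let-7a-5p (-0.17 and 0.16), let-7f-5p (-0.22 and 0.19) and miR-378a-3p (-0.62 and 0.20). The reverse was seen for let-7c-5p (0.55 and -0.14). The pattern was thus not particular to this family, and its share over all microRNAs was not counted. With 1 library per condition in each table, the difference between the experiments was not tested.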

How the results depend on the processing

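The counts of members past 2-fold, the medians and the seed family ratios kept their direction under every alternative that was run, and 0 of them reversed. With a minimum of 100 reads, the count of members at least 2-fold higher was 0 in both experiments, since the strands past 2-fold upwards had fewer reads. Over all microRNAs, the counts at least 2-fold higher and lower (38 and 39 in experiment 1, 50 and 67 in experiment 2) became 10 and 9 of 158 and 12 and 24 of 298 with that minimum, 99 and 102 of 484 with no minimum in experiment 1, and 23 and 49 with zeros at the lowest listed value in experiment 2. The miR-99 family ratio in experiment 1 was -0.50 with median-of-ratios size factors, -0.57 without the most abundant microRNA in the total and -0.58 without miR-99b-5p, and in experiment 2 it was 0.19 with size factors and 0.17 without miR-99b-5p. The miR-125 family ratio in experiment 1 was -0.0035 with size factors, nearly 0, and -0.072 without the most abundant microRNA. With size factors, let-7c-5p had 0.59 and -0.15 and let-7a-5p had -0.13 and 0.15 in experiments 1 and 2. Size factors moved the median of all microRNAs by 0.03 and -0.01. Leaving out miR-99b-5p was chosen after the data were seen, as was leaving miR-143-3p out of the mesenchymal sum, which reversed its log2 ratio from -0.01 to 0.24 in experiment 1 and moved it from 0.33 to 0.07 in experiment 2. Of 63 values of single members, 61 stayed within their counting interval and 2, both of miR-99b-5p in experiment 1, did not. Of 18 values of the seed families, 12 stayed within their counting interval and 6 did not. For the cluster neighbours, 6 of 10 values stayed within it and 4 did not. The sign of miR-125a-5p in experiment 1 turned once. A mean of 2 tables without one of them lies within 1 SD by construction. Each ratio sets the libraries of 1 table against each other, so the means over both are already paired by table. Depth limits the 3p strands, which had as few as 4 reads.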
